A study of Mus musculus with 16 samples.

Results

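Nuclear genes encode most of the proteins of the mitochondrial respiratory chain, and their transcripts were followed here in cultured heart slices. Members were the protein-coding genes whose symbols place them among the subunits of complexes I to V or name cytochrome c, with assembly factors left out. Of the 55487 genes in the count table, 87 matched and 84 of these held at least 10 counts over the 16 libraries, namely 37 of complex I, 4 of complex II, 9 of complex III, cytochrome c itself, 16 of complex IV and 17 of complex V. The 3 members under the minimum were Cox7b2 with 4 counts, Cox8c with 0 counts and a second identifier of Atp5o with 0 counts. Placement followed the symbol, so that Ndufa4, now regarded as a partner of complex IV, and its homologue Ndufa4l2 were counted with complex I, the supercomplex factor Cox7a2l with complex IV, and Atp5s, which is no structural subunit, with complex V.

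Slices came from hearts of male mice aged 8 weeks, with apex and base removed. Swhtr null mice (Swhtr3xpA/3xpA) carried a transcriptional stop insert on both alleles of the long non-coding RNA gene Swhtr, and WT mice were C57Bl6/J. Treated slices were held for 7 days at 3% O2 and then for 7 days at 21% O2, and untreated slices for 14 days at 21% O2. The groups were Swhtr null treated, Swhtr null untreated, WT treated and WT untreated, with 4 libraries each. The Swhtr null line went through hybrid ES cells and was kept by mating homozygotes after backcrosses to C57BL6J, so that the insert and the rest of the line's background cannot be told apart, and the genotype could not be checked, since Swhtr has no count among the files used. The 8 libraries of a genotype came from 4 mice, some therefore share a mouse, and p-values measure only the spread between these libraries.

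In the respiratory chain, complex I takes electrons from NADH and complex II from succinate, both pass them by ubiquinone to complex III, and cytochrome c carries them on to complex IV, where oxygen is reduced. The proton gradient built on the way drives complex V, the ATP synthase. Core subunits of complexes I, III, IV and V are encoded by mitochondrial DNA and are assembled with the nuclear-encoded ones, complex II is wholly nuclear, and adult heart muscle is among the tissues richest in these proteins. NRF1, the GABP factor, YY1 and the oestrogen-related receptors are known to drive promoters of these nuclear genes, helped by coactivators of the PGC-1 family.

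The promoters of the 5 members with the clearest treatment difference in Swhtr null slices are shown because these genes lead the results below. The sequences are RefSeq's (GRCm38.p6), 5′ to 3′ in the direction of the gene, and lie within the 250 bases before its start, except that those of Ndufa6 and Atp5k run 25 bases into the first annotated exon and that of Uqcrh runs 1 base into it. Capitals mark any match, on either strand, to 4 motifs, which were GCATGCGC for NRF1, CCGGAAG for GABP, AAGATGGC for YY1 and AAGGTCA for the oestrogen-related receptors.
Cox7a2l promoter, chr17:83514334-83514583 (minus strand): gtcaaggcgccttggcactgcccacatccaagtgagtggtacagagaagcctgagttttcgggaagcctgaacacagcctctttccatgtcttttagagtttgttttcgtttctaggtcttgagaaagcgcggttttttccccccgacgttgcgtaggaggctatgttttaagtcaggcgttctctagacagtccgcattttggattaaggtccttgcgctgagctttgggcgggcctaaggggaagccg
Ndufa6 promoter, chr15:82354298-82354541 (minus strand): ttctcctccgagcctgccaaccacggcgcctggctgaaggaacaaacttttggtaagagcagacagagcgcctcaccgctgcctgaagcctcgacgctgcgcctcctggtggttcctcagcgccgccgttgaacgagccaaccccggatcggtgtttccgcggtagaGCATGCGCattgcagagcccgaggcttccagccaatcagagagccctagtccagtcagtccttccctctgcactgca
Ndufv3 promoter, chr17:31519981-31520114 (plus strand): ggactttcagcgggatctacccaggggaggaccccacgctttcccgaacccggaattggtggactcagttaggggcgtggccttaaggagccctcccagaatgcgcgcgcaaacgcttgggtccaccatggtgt
Atp5k promoter, chr5:108434424-108434649 (minus strand): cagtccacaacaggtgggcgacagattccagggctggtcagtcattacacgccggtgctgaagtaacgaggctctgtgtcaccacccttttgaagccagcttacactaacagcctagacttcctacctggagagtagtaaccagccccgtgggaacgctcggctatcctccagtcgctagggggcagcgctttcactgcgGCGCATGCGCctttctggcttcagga
Uqcrh promoter, chr4:116075071-116075268 (minus strand): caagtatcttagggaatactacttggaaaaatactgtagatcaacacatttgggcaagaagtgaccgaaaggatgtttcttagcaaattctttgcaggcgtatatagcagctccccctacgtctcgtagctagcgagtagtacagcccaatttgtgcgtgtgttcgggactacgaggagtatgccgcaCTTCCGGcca
The Cox7a2l sequence starts from RefSeq's start site and lies inside the longer gene that GENCODE draws, between its exons. The Atp5k sequence held the NRF1 letters on both strands in overlapping positions, the Ndufa6 sequence held them once, the Uqcrh sequence held the GABP letters on the opposite strand, and those of Cox7a2l and Ndufv3 held none of the 4. A promoter sequence was at hand for 68 members. In the 250 bases upstream, the NRF1 letters stood in 9 of these (13.2%) against 692 of 27025 genes (2.6%), and the GABP letters in 12 (17.6%) against 2115 genes (7.8%). The YY1 letters stood in 1 member (1.5%) against 494 genes (1.8%), and the receptor letters in 5 members (7.4%) against 1271 genes (4.7%). These are matches of letters and not measured binding.

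Libraries held 17830351 to 29941903 counts, of which the 84 members took 0.543% to 0.632%. The slices were labelled heart, and all 15 cardiomyocyte markers had counts, but they were low after culture. Their summed level was 12.9 to 125 CPM (counts relative to a library of 1000000, scaled by TMM) in Swhtr null treated slices and 9.23 to 15.0 CPM in Swhtr null untreated slices, against 11.0 to 58.6 CPM in WT treated slices and 8.81 to 24.6 CPM in WT untreated slices. Replicates 2 and 3 of Swhtr null treated slices were highest, at 125 and 79.7 CPM, and Myh7, a myosin heavy chain, had no count in any WT untreated library. The 10 fibroblast markers summed to 29880 to 43000 CPM over all libraries and the 15 macrophage and monocyte markers to 5176 to 17570 CPM. In bulk RNA, fewer cells of a type and less RNA per cell cannot be told apart.

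All 84 members were above 1 CPM on average, 77 above 10 CPM and 41 above 50 CPM, with a median of 49.3 CPM against 2.58 CPM for the 24971 genes tested. The highest was Atp5b, the catalytic beta subunit of the ATP synthase, at 533 CPM, and the lowest was Cox8b, a muscle isoform of complex IV, at 1.11 CPM (both chosen after their values were seen, for the ends of the range). Per kilobase of exon, the highest levels were those of Cox8a at 229 CPM per kb, Cox6a1 at 225 CPM per kb and Ndufa4l2 at 187 CPM per kb. Cox8a and Cox6a1 are the broadly expressed isoforms of small complex IV subunits, and Ndufa4l2 is known as a hypoxia-inducible homologue of Ndufa4. Members were short, with a median exon length of 1578 bases against 2945 bases for all genes with the count minimum.

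The first comparison asked how subunit transcripts differed in Swhtr null slices after hypoxia and return to normoxia. Of the 84 members, 72 were lower in Swhtr null treated than in Swhtr null untreated slices and 12 were higher, with a median log2 fold change of -0.14 against 0.012 for all genes tested, of which 48.3% were lower. The differences were small. By edgeR's quasi-likelihood test with Benjamini-Hochberg adjustment over all genes tested, 5 members were lower at an adjusted p under 0.05 and none was higher (1.27% of all genes were lower and 0.909% higher by this measure). Members are short, and among other genes above 1 CPM the share lower by this measure was 8.1% under 1000 bases, 5.25% from 1000 to 2000 bases and 2% from 2000 to 5000 bases, beside 1 of 21, 3 of 32 and 1 of 28 members in these classes. The 5 were Cox7a2l, Ndufa6, Ndufv3, Atp5k and Uqcrh. None passed the full call, which also asks for an absolute log2 fold change over 0.58 (0.621% of all genes were called), and neither DESeq2 nor limma called a member. At an unadjusted p under 0.05, 36 members (42.9%) were lower and 1 was higher, against 7.84% and 8.69% of all genes. In 25 members (29.8%) every Swhtr null treated library was below every Swhtr null untreated one, against 3.78% of all genes, and in none was it the other way (3.54%). Among the 14229 genes above 1 CPM, as all members were, 11.4% were lower and 12.8% higher at that p, and 5.13% and 5.19% did not overlap. Under 1000 bases 12 of 21 members were lower at that p, against 25.9% of the other genes, and from 1000 to 2000 bases 18 of 32, against 20.5%.

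Same-numbered Swhtr null libraries deviated together, though weakly in replicate 1 (r = 0.15), and treated replicate 3 was closer to untreated replicate 4 (r = 0.33) than to its own number (r = 0.26). Blocking on the number raised the count. With the replicate number as a block within each genotype, 25 members had an adjusted p under 0.05 in edgeR, 24 lower and 1 higher, and 1 was called, Cox6b2, a testis-type isoform of complex IV. Cox6b2 (chosen after its values were seen) had 2.15, 3.38, 2.21 and 2.15 CPM in Swhtr null treated slices, against 0.942, 2.19, 1.15 and 0.974 CPM in Swhtr null untreated slices. Its log2 fold change without the block was 0.92 ± 0.36 (SE; edgeR adjusted p = 0.204). The 5 also depended on single libraries: 15 members had an adjusted p under 0.05 without Swhtr null untreated replicate 2 and 9 without Swhtr null treated replicate 3, but 2 without Swhtr null untreated replicate 3, without Swhtr null untreated replicate 4 or without Swhtr null treated replicate 1, and 3 without Swhtr null treated replicate 2.

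**Figure D1:**
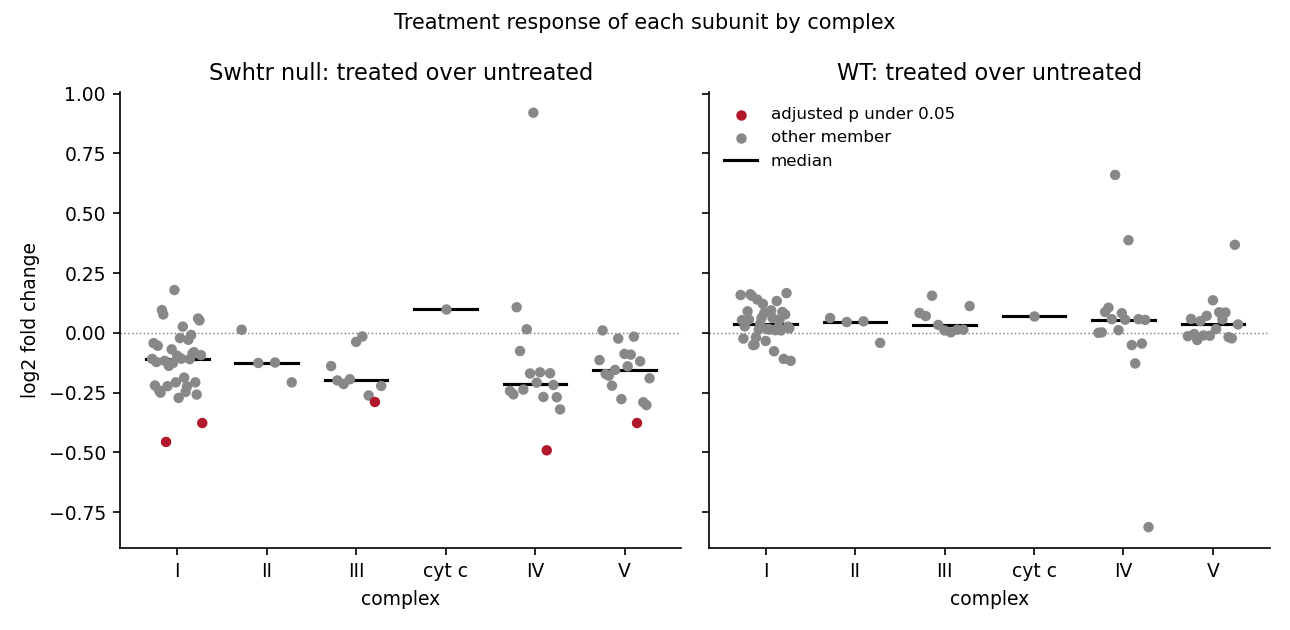
The log2 fold change of treated over untreated slices is plotted for each of the 84 members by complex (cyt c, cytochrome c), in Swhtr null slices on the left and WT slices on the right. Points are members, bars are medians of a complex, and red points are the 5 members at an edgeR adjusted p under 0.05, all of them lower in Swhtr null treated slices, where 72 of 84 points lie below 0.

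Complexes III and IV had the lowest medians in Swhtr null slices, with log2 fold changes of -0.20 over 9 members and -0.21 over 16 members. Complex V had a median of -0.16 over 17 members, complex II -0.13 over 4 and complex I -0.11 over 37. All 9 members of complex III were lower in treated slices, as were 16 of 17 of complex V, 13 of 16 of complex IV, 31 of 37 of complex I and 3 of 4 of complex II. Cytochrome c, the single member outside the complexes, was not among the lower ones. This order of the complexes did not hold after correction of each library for its trend over gene length, described below, when the medians were -0.13 in complex V, -0.11 in complex II, -0.10 in complex IV, -0.068 in complex III and -0.058 in complex I. Whether the complexes differ from each other was not tested.

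In complex I, the lowest p belonged to Ndufa6 and Ndufv3, both accessory subunits, which surround the catalytic core. Ndufa6 (chr15:82350140-82354322), an LYR-motif protein that binds the mitochondrial acyl carrier protein, had 37.2, 42.2, 47.6 and 40.9 CPM in Swhtr null treated slices, against 54.6, 52.9, 59.8 and 63.1 CPM in Swhtr null untreated slices. It had 46.7, 46.3, 45.4 and 45.8 CPM in WT treated slices, against 40.2, 49.6, 52.3 and 48.6 CPM in WT untreated slices. The Swhtr null groups did not overlap, the untreated one being the higher, and the WT groups did. The log2 fold change of treatment was -0.46 ± 0.084 in Swhtr null slices (SE; edgeR adjusted p = 0.00612) and -0.050 ± 0.084 in WT slices (edgeR adjusted p = 0.999).

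Ndufv3 (chr17:31520115-31531331), an accessory subunit at the tip where NADH is oxidised, had 50.7, 55.0, 57.5 and 55.4 CPM in Swhtr null treated slices, against 67.5, 61.7, 81.0 and 73.7 CPM in Swhtr null untreated slices. The groups did not overlap. In WT slices it had 63.4, 57.7, 58.6 and 57.0 CPM when treated, against 57.0, 62.7, 69.4 and 67.5 CPM when untreated, with overlap. Its log2 fold change was -0.38 ± 0.079 in Swhtr null slices (SE; edgeR adjusted p = 0.0145) and -0.12 in WT slices. The adjusted p in Swhtr null slices was 0.0718 without Swhtr null untreated replicate 3, 0.0616 without Swhtr null untreated replicate 4 and 0.0554 without Swhtr null treated replicate 1. Ndufv3 lies on chr17, as Swhtr does by the paper's coordinates, and is nearer to it than Cox7a2l is. Alleles that may have been carried along with the insert were not examined.

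Other members of complex I differed by less. Ndufa3, a small membrane subunit, averaged 50.8 ± 4.22 CPM in Swhtr null treated slices and 60.5 ± 2.25 CPM in Swhtr null untreated slices (SD, n = 4 each), without overlap, with a log2 fold change of -0.25 just outside the threshold (edgeR adjusted p = 0.0507). Ndufa2, a thioredoxin-like accessory subunit of which 11.5% of exon bases are shared with a gene on the other strand, averaged 44.3 ± 2.67 CPM in Swhtr null treated slices against 52.3 ± 2.29 CPM in Swhtr null untreated slices. Ndufb3, of the membrane arm, averaged 26.4 ± 1.22 CPM in Swhtr null treated slices against 30.5 ± 0.845 CPM in Swhtr null untreated slices. Their log2 fold changes were -0.24 and -0.21 (edgeR adjusted p = 0.0726 and 0.114). Ndufs1, the core subunit that holds several of the iron-sulphur clusters, differed by less than its spread, at 55.7 ± 4.37 CPM in Swhtr null treated slices and 56.8 ± 1.65 CPM in Swhtr null untreated slices (log2 fold change -0.029 ± 0.062, SE). In all, 11 of the 37 members were lower at an unadjusted p under 0.05 and none was higher.

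Of complex II, which also serves the tricarboxylic acid cycle, Sdhd was lowest and Sdha did not differ beyond its spread. Sdhd, one of the membrane anchors that bind ubiquinone, had 62.7, 62.8, 71.5 and 68.8 CPM in Swhtr null treated slices, against 75.6, 75.9, 77.0 and 78.4 CPM in Swhtr null untreated slices, with no overlap. Its log2 fold change was -0.21 ± 0.057 (SE; edgeR adjusted p = 0.0600). Sdhc, the other anchor, averaged 81.9 ± 3.71 CPM in Swhtr null treated slices against 89.2 ± 3.83 CPM in Swhtr null untreated slices, also without overlap (log2 fold change -0.12, edgeR adjusted p = 0.300). Sdhb, the iron-sulphur subunit, averaged 55.0 ± 7.40 CPM in Swhtr null treated slices against 60.0 ± 3.91 CPM in Swhtr null untreated slices (-0.13). Sdha, the flavoprotein, averaged 171 ± 11.1 CPM in Swhtr null treated slices against 170 ± 1.59 CPM in Swhtr null untreated slices (0.013). The difference between Sdhd and Sdha was not tested.

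In complex III, Uqcrh (chr4:116066965-116075071), the hinge protein beside cytochrome c1, had 68.9, 71.7, 76.4 and 75.7 CPM in Swhtr null treated slices, against 82.4, 86.6, 89.4 and 99.2 CPM in Swhtr null untreated slices. In WT slices it had 81.6, 77.9, 80.2 and 81.5 CPM when treated, against 69.3, 77.1, 85.3 and 86.6 CPM when untreated. The Swhtr null treated libraries were below all Swhtr null untreated and all WT treated libraries, and overlapped the WT untreated ones. The log2 fold change was -0.29 ± 0.072 in Swhtr null slices (SE; edgeR adjusted p = 0.0364) and 0.013 ± 0.072 in WT slices, where leaving out WT untreated replicate 1 gave -0.048. Leaving out a library took the adjusted p in Swhtr null slices above the threshold in 6 cases. It was 0.0977 and 0.184 without Swhtr null untreated replicates 3 and 4, 0.113, 0.0737 and 0.0551 without Swhtr null treated replicates 1, 2 and 4, and 0.0525 without WT treated replicate 3.

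Uqcrfs1, the Rieske iron-sulphur protein of complex III, had 52.6, 49.6, 60.3 and 61.7 CPM in Swhtr null treated slices, against 66.4, 63.4, 65.2 and 74.0 CPM in Swhtr null untreated slices. These did not overlap, and the log2 fold change was -0.26 ± 0.071 (SE; edgeR adjusted p = 0.0588). Uqcrq and Uqcr10, small subunits of the same complex, did not overlap either, with log2 fold changes of -0.22 and -0.20 (edgeR adjusted p = 0.117 and 0.215). Uqcr11 (-0.21) and Cyc1, the haem-bearing cytochrome c1 (-0.14), overlapped between the groups. Of the 9 members 7 were lower at an unadjusted p under 0.05. Cycs, the soluble cytochrome c that also acts in apoptosis, had 86.4, 70.7, 80.3 and 87.3 CPM in Swhtr null treated slices, against 69.8, 82.0, 67.3 and 83.6 CPM in Swhtr null untreated slices, a log2 fold change of 0.10 ± 0.079 with overlapping groups (SE; edgeR adjusted p = 0.561).

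**Figure D2:**
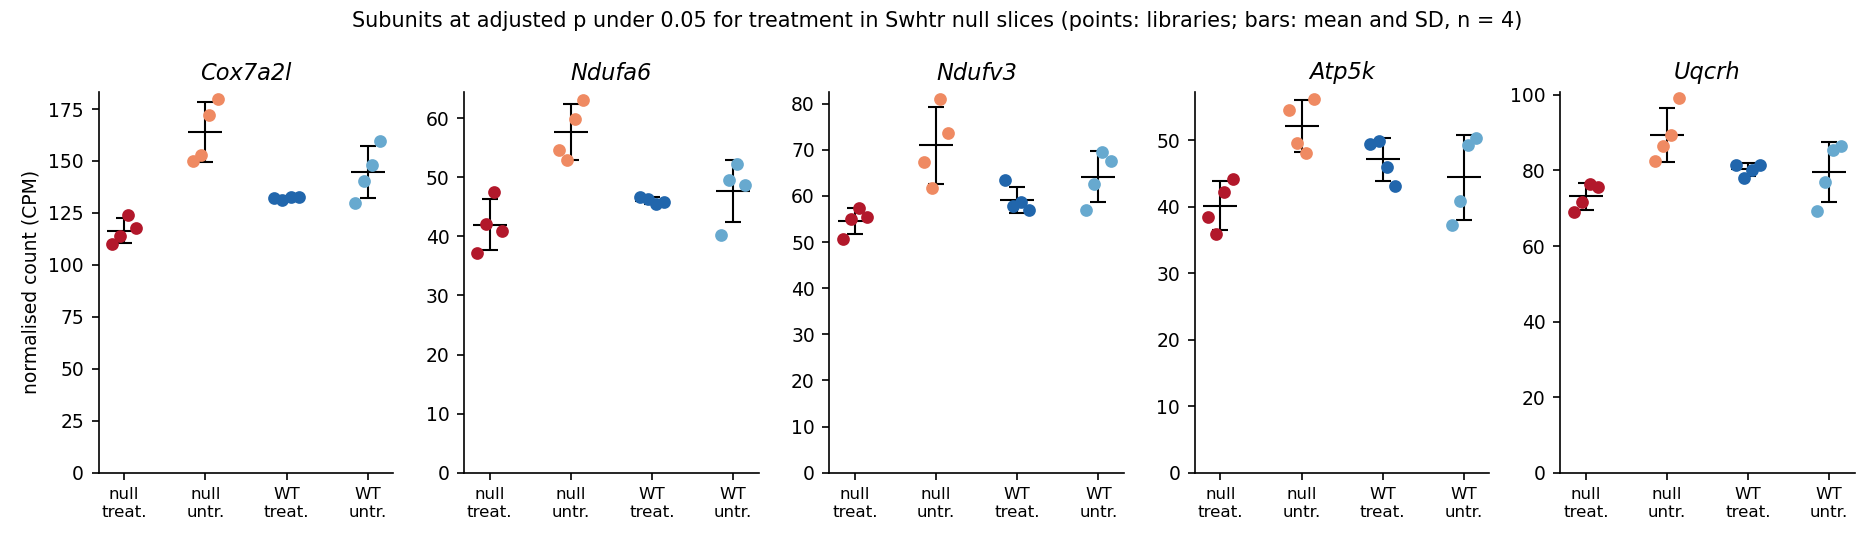
Normalised counts (CPM, axes from 0) of the 5 members at an edgeR adjusted p under 0.05 are plotted for each library of the 4 groups (null, Swhtr null; treat., treated; untr., untreated). Points are libraries, and bars give the mean and SD (n = 4). In each gene all 4 Swhtr null treated points lie below all 4 Swhtr null untreated points, and the WT groups overlap.

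Cox7a2l (chr17:83501918-83517330) had the smallest p of all members. The gene is described in general as a factor that joins complexes III and IV in a supercomplex. It lies on chr17, as Swhtr does, and which of its alleles these mice carry was not examined. Cox7a2l had 110, 114, 124 and 118 CPM in Swhtr null treated slices, against 150, 153, 172 and 180 CPM in Swhtr null untreated slices. In WT slices it had 132, 131, 133 and 133 CPM when treated, against 130, 140, 148 and 160 CPM when untreated. Every Swhtr null treated library was below all 12 libraries of the other groups. Treatment gave a log2 fold change of -0.49 ± 0.070 in Swhtr null slices (SE; edgeR adjusted p = 0.00332) and -0.13 ± 0.070 in WT slices (edgeR adjusted p = 0.999).

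The subunits of complex IV proper were lower by smaller amounts. Cox7a2, the broadly expressed homologue of Cox7a2l, had 43.4, 42.4, 49.7 and 49.5 CPM in Swhtr null treated slices, against 53.0, 55.9, 59.4 and 54.5 CPM in Swhtr null untreated slices (log2 fold change -0.27 ± 0.071, SE; edgeR adjusted p = 0.0529). Cox6c, a small membrane subunit, averaged 114 ± 6.60 CPM in Swhtr null treated slices against 132 ± 7.53 CPM in Swhtr null untreated slices (-0.21; SD, n = 4 each). Cox4i1, the common form of the largest nuclear-encoded subunit, averaged 152 ± 16.5 CPM in Swhtr null treated slices against 179 ± 16.1 CPM in Swhtr null untreated slices (-0.24). Cox6a1 averaged 143 ± 15.0 CPM in Swhtr null treated slices against 168 ± 7.10 CPM in Swhtr null untreated slices (-0.24), and Cox8a 128 ± 17.4 CPM in Swhtr null treated slices against 154 ± 12.6 CPM in Swhtr null untreated slices (-0.27). The treated libraries lay below the untreated ones in Cox7a2, Cox6c and Cox6a1 and overlapped them in Cox4i1 and Cox8a, with edgeR adjusted p-values of 0.0892 to 0.132 in the last 4 described. Of the 16 members 9 were lower at an unadjusted p under 0.05 and Cox6b2 was higher.

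In complex V, Atp5k (chr5:108433244-108434448), subunit e, which takes part in forming dimers of the ATP synthase, had 38.4, 35.9, 42.2 and 44.2 CPM in Swhtr null treated slices, against 54.6, 49.7, 48.0 and 56.3 CPM in Swhtr null untreated slices. In WT slices it had 49.5, 49.98, 46.0 and 43.1 CPM when treated, against 37.3, 40.8, 49.2 and 50.3 CPM when untreated. The Swhtr null groups did not overlap and the WT groups did. The log2 fold change was -0.38 ± 0.093 in Swhtr null slices (SE; edgeR adjusted p = 0.0344) and 0.085 ± 0.093 in WT slices. The adjusted p in Swhtr null slices was 0.0865, 0.0549 and 0.157 without Swhtr null untreated replicates 1, 3 and 4, and 0.0979 and 0.0912 without Swhtr null treated replicates 1 and 2.

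Most other members of complex V were a little lower, and Atp5b was not. Atp5g2, one of the genes for the proton-carrying c ring, had 122, 103, 125 and 131 CPM in Swhtr null treated slices, against 143, 132, 149 and 159 CPM in Swhtr null untreated slices, without overlap (log2 fold change -0.28 ± 0.077, SE; edgeR adjusted p = 0.0635). Its paralogue Atp5g3 averaged 98.1 ± 6.40 CPM in Swhtr null treated slices against 104 ± 5.26 CPM in Swhtr null untreated slices (-0.088). Atp5mpl, a small proteolipid of the membrane part, averaged 55.4 ± 7.00 CPM in Swhtr null treated slices against 67.7 ± 8.39 CPM in Swhtr null untreated slices (-0.29). Atp5b, the most abundant member, averaged 525 ± 38 CPM in Swhtr null treated slices and 521 ± 23.6 CPM in Swhtr null untreated slices (0.010 ± 0.064, SE). Atp5o, the stalk subunit that confers oligomycin sensitivity, was counted at only 6.59 CPM on average. A second identifier on its strand and a pair of genes on the other strand overlap it, each sharing 12.3% to 18.1% of its exon bases, and its values are uncertain for that reason.

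The treatment difference ran with gene length. Over the 84 members, Spearman's rho between the log2 fold change and exon length was 0.37 in Swhtr null slices and -0.076 in WT slices, a description over genes that share libraries. The 21 members under 1000 bases had a median of -0.21 in Swhtr null slices and the 31 of 2000 bases or more a median of -0.088. Genes outside the respiratory chain showed the same order. Those above 1 CPM had medians of -0.18 under 1000 bases (802 genes), -0.074 from 1000 to 2000 bases (1599 genes), -0.006 from 2000 to 5000 bases (5946 genes) and 0.042 above 5000 bases (5784 genes). The share of short transcripts moved with the library, the level of genes under 1000 bases relative to those above 5000 being -0.17 to -0.079 in Swhtr null treated libraries and 0.001 to 0.23 in Swhtr null untreated libraries, against -0.023 to 0.021 in WT treated and -0.14 to 0.070 in WT untreated libraries (log2). When each library was corrected for its trend over length, the members' median in Swhtr null slices was -0.080, 66 members were lower, 21 of them at an unadjusted p under 0.05, and 3 had an adjusted p under 0.05 in edgeR. Atp5k (-0.23, adjusted p = 0.184) and Uqcrh (-0.20, adjusted p = 0.120) were then above that threshold.

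**Figure D3:**
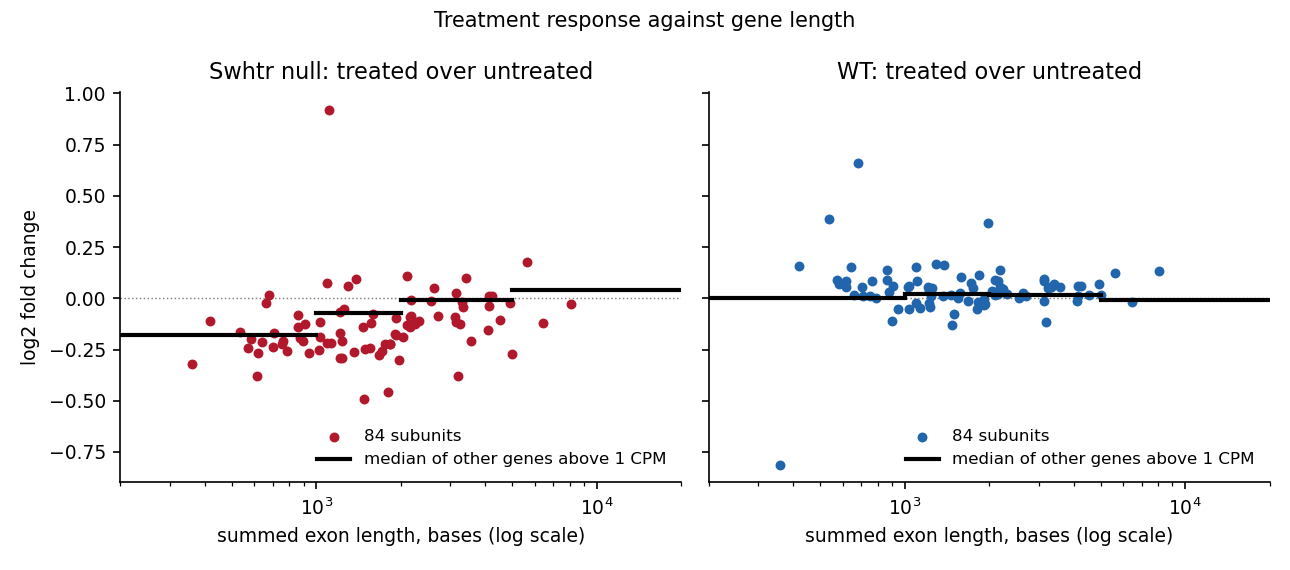
The log2 fold change of treated over untreated slices is plotted against summed exon length (bases, log scale), in Swhtr null slices on the left and WT slices on the right. Points are the 84 members, and black bars are the medians of the other genes above 1 CPM in 4 length classes. In Swhtr null slices the black bars climb from -0.18 for the shortest genes to 0.042 for the longest, and in WT slices they stay between -0.006 and 0.020.

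Marker genes of other cells moved with the treatment as well. In Swhtr null slices 14 of 15 cardiomyocyte markers were higher in treated than in untreated libraries, with a median log2 fold change of 2.77, 9 of them at an unadjusted p under 0.05 and none at an adjusted p under 0.05 in edgeR. In WT slices 14 of 15 were higher too, with a median of 1.33. Of these, 4 had an unadjusted p under 0.05 and none an adjusted p under 0.05 in edgeR. Myh6, the main adult myosin heavy chain, had a median of 6.91 CPM (0.716 to 21.0) in Swhtr null treated slices and 0.106 CPM (0.0513 to 0.141) in Swhtr null untreated slices, against 3.27 CPM (0.292 to 10.1) in WT treated slices and 0.280 CPM (0.158 to 0.654) in WT untreated slices. All 15 macrophage and monocyte markers were lower in Swhtr null treated slices, with a median of -0.60, and their sum was 5176 to 13490 CPM there and 10690 to 17570 CPM in Swhtr null untreated slices, against 12220 to 14030 CPM in WT treated and 12110 to 16090 CPM in WT untreated slices. Of the other markers, all 10 of smooth muscle and pericytes were higher in Swhtr null treated than in untreated slices (median 0.47, none at an adjusted p under 0.05 in edgeR), as were 9 of 10 of endothelium (median 0.26, 1 at an adjusted p under 0.05) and 9 of 10 of fibroblasts (median 0.18, 1 called). Smooth muscle and pericyte markers summed to 1180 to 1483 CPM in Swhtr null treated slices, against 811.6 to 1101 CPM in Swhtr null untreated slices, without overlap. Endothelial markers summed to 1729 to 2633 CPM in Swhtr null treated slices, against 1566 to 1949 CPM in Swhtr null untreated slices, with overlap. Fibroblast markers summed to 32580 to 43000 CPM in Swhtr null treated slices, against 29880 to 35750 CPM in Swhtr null untreated slices, also with overlap. Adipocyte markers were higher in 8 of 9 (median 0.55, none at an adjusted p under 0.05 in edgeR). Mesothelial markers were higher in 4 of 8, with 1 called lower, and Schwann cell markers in 3 of 6, with 1 called higher. For treatment in WT slices 7 of 8 mesothelial, 11 of 15 macrophage and monocyte and 6 of 10 fibroblast markers were lower. There 8 of 9 adipocyte, 6 of 10 endothelial, 6 of 10 smooth muscle and pericyte and 3 of 6 Schwann cell markers were higher. Without Swhtr null treated replicates 2 and 3, which held the most Myh6, the members' median in Swhtr null slices was -0.099, with 61 lower, 21 of them at an unadjusted p under 0.05, and 3 at an adjusted p under 0.05 in edgeR. Replicate 2 also had the lowest macrophage and monocyte sum (5176 CPM) and the highest fibroblast sum (43000 CPM) of all libraries. Leaving these libraries out therefore does not single out the cardiomyocyte markers. The part of the cardiomyocyte, macrophage, smooth muscle, endothelial, fibroblast, adipocyte, mesothelial and Schwann cell markers in the result was not tested.

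In WT slices the same treatment went with little difference. Of the 84 members, 64 were higher in WT treated than in WT untreated slices and 20 were lower, with a median log2 fold change of 0.047 against 0.008 for all genes tested, of which 51.9% were higher. No member had an adjusted p under 0.05 in edgeR's quasi-likelihood test, in DESeq2 or in limma (0.0% of all genes were higher and 0.004% lower by the edgeR measure), and the smallest adjusted p of a member was 0.999. At an unadjusted p under 0.05 edgeR found 4 members (4.8%) higher and 0 lower, against 2.62% and 2.2% of all genes, and DESeq2 also 4 higher. The 4 of edgeR became 0 without WT treated replicate 1, 0 without WT treated replicate 2, 1 without WT untreated replicate 1, 2 without WT untreated replicate 3 and 2 without Swhtr null treated replicate 3, while limma found 5 higher and 1 lower. Of genes above 1 CPM, 2.57% were higher and 2.27% lower at that p, and in 2.38% and 2.05% the groups did not overlap, higher and lower. The median was 0.009, with 44 members higher and 40 lower, without WT untreated replicate 1, the library with the lowest members' level of its group, and 0.019 without WT treated replicate 2.

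The 4, none of which kept an unadjusted p under 0.05 without WT treated replicate 1 or without WT treated replicate 2, were Ndufa4l2, Atp5o, Ndufs1 and Atp5g3. Ndufa4l2 had 219, 213, 203 and 195 CPM in WT treated slices, against 192, 167, 196 and 190 CPM in WT untreated slices, which overlapped (log2 fold change 0.16 ± 0.068, SE; edgeR adjusted p = 0.999). Ndufs1 averaged 58.9 ± 2.57 CPM in WT treated slices and 53.7 ± 1.88 CPM in WT untreated slices (log2 fold change 0.13 ± 0.063), and Atp5g3 107 ± 5.94 CPM in WT treated slices and 97.4 ± 5.37 CPM in WT untreated slices (0.14 ± 0.064). Atp5o averaged 7.57 ± 0.807 CPM in WT treated slices and 5.86 ± 1.37 CPM in WT untreated slices (0.37 ± 0.16). In WT slices 2 members had every treated library above every untreated one, against 1.92% of all genes, and none was the other way (1.75%). They were Ndufa1 and Ndufa8, accessory subunits of complex I (named after their values were seen). Medians by complex lay between 0.033 for complex III and 0.055 for complex IV, with complex I at 0.037, complex II at 0.047 and complex V at 0.035.

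**Figure D4:**
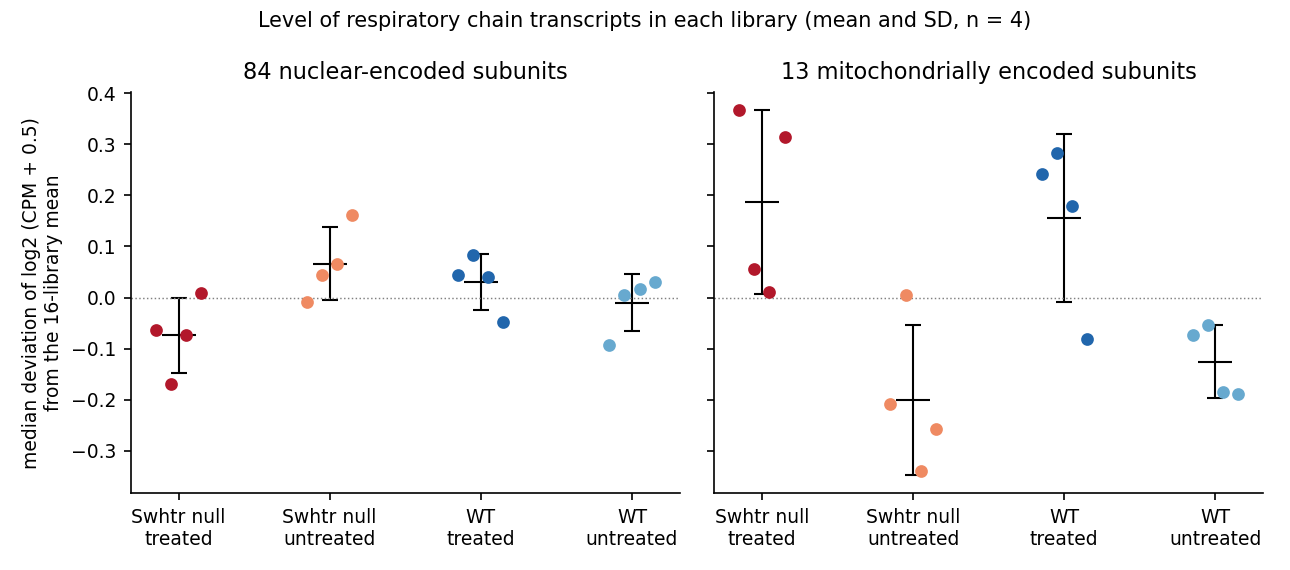
The level of the 84 nuclear-encoded subunits (left) and of the 13 mitochondrially encoded subunits (right) is plotted for each library as the median deviation of log2(CPM + 0.5) from the mean over all 16 libraries. Points are libraries, and bars give the mean and SD (n = 4). On the left, Swhtr null treated libraries lie at -0.17 to 0.009 and Swhtr null untreated ones at -0.009 to 0.16, with 1 library of each group overlapping.

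The level of the whole set was taken in each library as the median deviation of its members' log2(CPM + 0.5) from their mean over all libraries. It was -0.063, -0.17, -0.073 and 0.009 in Swhtr null treated slices, against -0.009, 0.044, 0.066 and 0.16 in Swhtr null untreated slices. It was 0.045, 0.083, 0.041 and -0.047 in WT treated slices, against -0.093, 0.005, 0.017 and 0.030 in WT untreated slices. Replicate 2 of Swhtr null treated slices was the lowest of the 16 libraries and replicate 4 of Swhtr null untreated slices the highest, and all groups overlapped with their neighbours.

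The genotypes were then compared within each treatment. In untreated slices 69 of 84 members were higher in Swhtr null than in WT and 15 were lower, with a median log2 fold change of 0.081 against 0.0 for all genes tested, of which 49.8% were higher. No member was called by edgeR, DESeq2 or limma (0.1% of all genes were called by edgeR), and the smallest adjusted p of a member was 0.903. At an unadjusted p under 0.05 edgeR found 12 members (14.3%) higher and none lower, against 2.72% and 2.64% of all genes, or 3.01% and 2.96% of those above 1 CPM. Under 1000 bases 4 of 21 members were higher at that p against 11.5% of other genes above 1 CPM, and from 1000 to 2000 bases 7 of 32 against 6.44%. The 12 members became 3 without WT untreated replicate 1, 7 without WT untreated replicate 2, 7 without Swhtr null untreated replicate 3, 6 without Swhtr null untreated replicate 4 and 7 with the length correction, whose median was 0.050. DESeq2 and limma each found 11 higher at an unadjusted p under 0.05. In 6 members the groups did not overlap, always with Swhtr null higher, against 1.46% of all genes with Swhtr null higher and 1.41% with it lower, or 1.47% and 1.64% of those above 1 CPM. The median was 0.048 without Swhtr null untreated replicate 4 and 0.052 without WT untreated replicate 1. Marker genes differed too, none at an adjusted p under 0.05 in edgeR. In Swhtr null untreated slices 9 of 10 markers of smooth muscle and pericytes were lower (median -0.30). So were 9 of 10 of endothelium (-0.17), 7 of 8 of mesothelium (-1.56) and 4 of 6 of Schwann cells (-0.54). Adipocyte markers were lower in 6 of 9, fibroblast in 7 of 10, macrophage and monocyte in 9 of 15 and cardiomyocyte in 8 of 15. The part of these markers in the result was not tested.

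Ndufa6 had the smallest p of these, at 57.6 ± 4.71 CPM in Swhtr null untreated slices and 47.7 ± 5.22 CPM in WT untreated slices (SD, n = 4 each), which did not overlap (log2 fold change 0.27 ± 0.084, SE; edgeR adjusted p = 0.903). Cox6c averaged 132 ± 7.53 CPM in Swhtr null untreated slices and 117 ± 5.91 CPM in WT untreated slices (0.18), Ndufb3 30.5 ± 0.845 CPM in Swhtr null untreated slices and 26.9 ± 1.45 CPM in WT untreated slices (0.18), and Cox7a2 55.7 ± 2.72 CPM in Swhtr null untreated slices and 49.7 ± 3.21 CPM in WT untreated slices (0.16), each without overlap. Cox7a2l (0.18) and Atp5k (0.23) were higher by similar amounts and overlapped.

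In treated slices the order was the other way. There 78 members were lower in Swhtr null than in WT and 6 were higher, with a median log2 fold change of -0.089 against -0.001 for all genes tested, of which 50.2% were lower. No member was called by edgeR, DESeq2 or limma (0.0921% of all genes were called by edgeR), and the smallest adjusted p of a member was 0.767. At an unadjusted p under 0.05 edgeR found 16 members (19.0%) lower against 3.36% of all genes and none higher (2.88%), the shares above 1 CPM being 3.87% and 3.18%, DESeq2 17 lower and limma 12 lower and 1 higher. The 16 members became 10 without WT treated replicate 1, 6 without WT treated replicate 2, 10 without Swhtr null treated replicate 1, 8 without Swhtr null treated replicate 2 and 27 without Swhtr null treated replicate 4. Of other genes above 1 CPM, 8.48% were lower at that p under 1000 bases, where 7 of 21 members were, and 8.19% from 1000 to 2000 bases, where 6 of 32 members were. In 10 members the groups did not overlap, always with Swhtr null lower, against 2.36% of all genes with Swhtr null lower and 1.7% with it higher, or 2.94% and 2.18% of those above 1 CPM. Without Swhtr null treated replicates 2 and 3 the median was -0.055 and 3 members were lower at an unadjusted p under 0.05, and with the length correction the median was -0.056 and 3 members were lower. Marker genes differed in the same comparison, with all 15 macrophage and monocyte markers lower in Swhtr null treated slices (median -0.46), and all 15 cardiomyocyte markers (median 1.02) and all 10 fibroblast markers (median 0.14) higher. All 8 mesothelial markers (-1.04) and 7 of 9 adipocyte markers (-0.21) were lower. Of endothelium 9 of 10 (0.11), of smooth muscle and pericytes 8 of 10 (0.13) and of Schwann cells 4 of 6 (0.10) were higher. The part of these markers in the result was not tested.

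Cyc1 averaged 52.4 ± 2.58 CPM in Swhtr null treated slices and 59.4 ± 1.76 CPM in WT treated slices (SD, n = 4 each), without overlap (log2 fold change -0.18 ± 0.063, SE; edgeR adjusted p = 0.767). Cox7a2l averaged 117 ± 6.07 CPM in Swhtr null treated slices and 132 ± 0.711 CPM in WT treated slices, also without overlap, with a log2 fold change of -0.18 ± 0.070. Ndufa3 and Ndufa2 were lower by 0.20 each on the log2 scale, Uqcrq by 0.17, Uqcr10 by 0.22 and Cox6a1 by 0.19, with unadjusted p-values of 0.00771 to 0.0247. Cycs did not differ beyond its spread, at 81.2 ± 7.64 CPM in Swhtr null treated slices and 81.7 ± 5.48 CPM in WT treated slices (log2 fold change -0.009 ± 0.078, SE), and its sign turned when single libraries were left out.

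The difference of the treatment responses, Swhtr null minus WT, compared the response between the genotypes. It was below 0 for 78 members and above 0 for 6, with a median of -0.17 on the log2 scale against 0.002 for all genes tested, of which 49.8% were below 0. At an unadjusted p under 0.05 edgeR found 28 members (33.3%) below 0 and none above, against 3.63% of all genes below 0 and 3.26% above (4.29% and 3.93% of those above 1 CPM), DESeq2 30 below, and limma 23 below and 1 above. The 28 members became 17 without WT untreated replicate 1 and 18 without Swhtr null untreated replicate 4. Of other genes above 1 CPM, 15% were below 0 at that p under 1000 bases, where 10 of 21 members were, and 10.4% from 1000 to 2000 bases, where 13 of 32 members were. No member had an adjusted p under 0.05 in edgeR, DESeq2 or limma (0.0% of all genes by edgeR), and the smallest adjusted p, of a member and of any gene, was 0.715. With the replicate block within each genotype, Cox7a2l (-0.37, edgeR adjusted p = 0.0329) and Ndufa6 (-0.41, edgeR adjusted p = 0.0499) passed. That block also pairs the WT libraries by number, which their correlations did not bear out in replicates 1 and 2. The pairing of the Swhtr null libraries was itself read from these data. With the length correction the median was -0.093 and 10 members were below 0 at an unadjusted p under 0.05. Marker genes moved in this comparison too. All 15 of macrophages and monocytes were below 0 (median -0.55), as were 7 of 9 of adipocytes. Above 0 were all 10 of smooth muscle and pericytes (0.43), all 10 of endothelium (0.27) and 9 of 10 of fibroblasts (0.24). So were 10 of 15 of cardiomyocytes (0.96), 6 of 8 of mesothelium and 4 of 6 of Schwann cells. The part of these markers in the result was not tested.

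By complex, the difference had medians of -0.27 in complex III, -0.24 in complex IV, -0.17 in complexes II and V and -0.14 in complex I, and cytochrome c was at 0.030. With the length correction they were -0.17 in complex III, -0.16 in complex V, -0.12 in complex IV, -0.093 in complex II and -0.079 in complex I. The 5 leading members had differences of -0.36 ± 0.099 for Cox7a2l, -0.41 ± 0.12 for Ndufa6, -0.26 ± 0.11 for Ndufv3, -0.46 ± 0.13 for Atp5k and -0.30 ± 0.10 for Uqcrh (log2, SE). In 52 members treated slices were lower than untreated ones in Swhtr null and higher in WT, and in 20 they were lower in both genotypes.

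Isoform pairs asked whether the slices moved between tissue-restricted or hypoxia-linked subunits and the common ones. Among the 5 pairs only Ndufa4l2 was above its common partner. It averaged 218 ± 11.9 CPM in Swhtr null treated slices, 206 ± 15.3 CPM in Swhtr null untreated slices, 207 ± 10.8 CPM in WT treated slices and 186 ± 12.7 CPM in WT untreated slices (SD, n = 4 each). Ndufa4 averaged 45.6 ± 6.05 CPM in Swhtr null treated slices, 42.7 ± 4.66 CPM in Swhtr null untreated slices, 47.1 ± 4.36 CPM in WT treated slices and 42.2 ± 4.201 CPM in WT untreated slices. The log2 ratio within a library was 2.25 ± 0.24 in Swhtr null treated slices against 2.26 ± 0.25 in Swhtr null untreated slices, and 2.13 ± 0.094 in WT treated slices against 2.13 ± 0.24 in WT untreated slices.

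Cox4i2, the hypoxia- and lung-linked form of subunit IV, averaged 19.0 ± 3.67 CPM in Swhtr null treated slices, 22.8 ± 3.65 CPM in Swhtr null untreated slices, 18.3 ± 1.84 CPM in WT treated slices and 18.2 ± 5.17 CPM in WT untreated slices (SD, n = 4 each), beside 152 to 179 CPM of Cox4i1. The heart and skeletal muscle isoforms were lowest. Group means were 1.34 to 2.17 CPM for Cox6a2, 2.79 to 4.07 CPM for Cox7a1 and 0.874 to 1.58 CPM for Cox8b, and those of their common partners Cox6a1, Cox7a2 and Cox8a 143 to 168 CPM, 46.2 to 55.7 CPM and 128 to 154 CPM. Of 20 exact two-sided permutation tests of the log2 ratios, which can give no p below 0.0286, the smallest p was 0.0571, for Cox7a1 over Cox7a2 in WT slices (-3.55 ± 0.16 when treated and -3.97 ± 0.31 when untreated), and the adjusted p-values were at least 0.857.

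**Figure D5:**
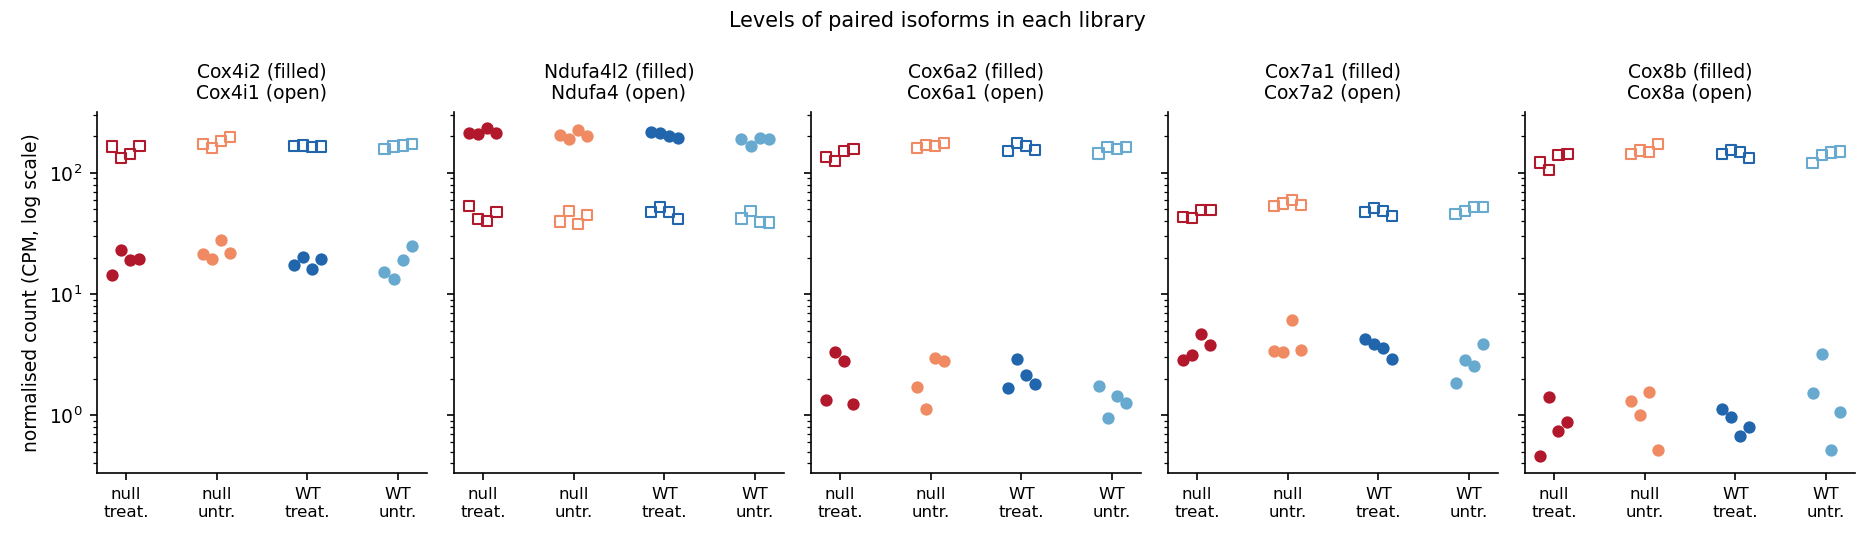
Normalised counts (CPM, log scale) of 5 isoform pairs are plotted for each library of the 4 groups (null, Swhtr null; treat., treated; untr., untreated). Filled circles are the tissue-restricted or hypoxia-linked isoform and open squares the common one. Ndufa4l2 lies above Ndufa4 in all 16 libraries, and the 4 other filled isoforms lie below their partners.

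The rest of the pathway was read from lists of genes that were not members. The 13 subunits encoded by mitochondrial DNA were all higher in Swhtr null treated than in Swhtr null untreated slices, with a median log2 fold change of 0.43. Of these, 6 had an adjusted p under 0.05 in edgeR, against 0.909% of all genes higher by this measure. Among the 6, mt-Nd4l, a subunit of complex I named after its values were seen, was called (0.60, edgeR adjusted p = 0.0305), as were 0.621% of all genes. In WT slices all 13 were also higher in treated slices, with a median of 0.27 and none at an adjusted p under 0.05, and the difference of the responses had a median of 0.14 with none of 13 at an unadjusted p under 0.05. Their level in a library was 0.37, 0.056, 0.010 and 0.32 in Swhtr null treated slices, against -0.21, 0.005, -0.34 and -0.26 in Swhtr null untreated slices, without overlap. It was 0.24, 0.28, 0.18 and -0.082 in WT treated slices, against -0.074, -0.054, -0.18 and -0.19 in WT untreated slices, with overlap.

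Assembly factors build the complexes and are not part of them. Of 15 complex I factors tested none had an adjusted p under 0.05 for treatment in Swhtr null slices in edgeR, 1 was higher and 1 lower before adjustment, and their median log2 fold change was 0.092. Of 34 factors of complexes II to V, 21 were lower and 13 higher with a median of -0.079. Before adjustment 8 of them were lower and 0 higher (p under 0.05), against 7.84% and 8.69% of all genes. In 8 the groups did not overlap, all lower, against 3.78% of all genes. Of genes above 1 CPM other than members, 25.9% of those under 1000 bases and 20.5% of those from 1000 to 2000 bases were lower at that p. The lengths of the factors were not compared. At an adjusted p under 0.05 in edgeR, 2 of the 34 were lower, against 1.27% of all genes. The 2 (named after their values were seen) were Surf1, needed for complex IV, at 21.4 ± 1.23 CPM in Swhtr null treated slices and 26.9 ± 1.86 CPM in Swhtr null untreated slices (-0.33, adjusted p = 0.0432), and Higd1a, a hypoxia-inducible partner of complex IV, at 64.3 ± 3.76 CPM in Swhtr null treated slices and 90.7 ± 7.57 CPM in Swhtr null untreated slices (-0.50, adjusted p = 0.00383; SD, n = 4 each).

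Among 16 regulators of mitochondrial biogenesis, 1 had an adjusted p under 0.05 for treatment in Swhtr null slices in edgeR (0.909% of all genes were higher and 1.27% lower by this measure). This was Pprc1 (named after its values were seen), a coactivator of the PGC-1 family, which was higher, at 63.4 ± 3.91 CPM in Swhtr null treated slices and 50.7 ± 3.09 CPM in Swhtr null untreated slices (0.32 ± 0.062, SE; adjusted p = 0.00814; SD, n = 4 each). Ppargc1a, the best known of that family, was near the limit of detection, at 0.592 ± 0.316 CPM in Swhtr null treated slices and 0.435 ± 0.287 CPM in Swhtr null untreated slices, against 0.250 ± 0.1001 CPM in WT treated slices and 0.487 ± 0.145 CPM in WT untreated slices. The transcription factors Nrf1 (0.031), Esrra (-0.062) and Tfam (-0.033) had log2 fold changes within 1 SE of 0 in Swhtr null slices, with SEs of 0.088, 0.076 and 0.080.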

How the data were processed

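RNA of heart slices was sequenced in 16 libraries. The deposited values are raw counts per gene, which the authors made by aligning paired-end reads to the mm10 build (GRCm38) with STAR and counting with GenomicAlignments on Ensembl release 102. The methods name ribosomal depletion with ScriptSeq libraries, the labels a TruSeq mRNA kit. The strand setting is not stated, so that reads of overlapping genes cannot be told apart, and 11 members share over 10% of their exon bases with another gene. All 16 count columns were used, and 0 belonged to no sample.

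Symbols, biotypes and positions were taken from GENCODE M21, which held 55227 of the 55487 identifiers. The remaining identifiers took 0.0073% of the counts. The test was edgeR's (version 4.0.16, under R 4.3.3). Genes kept were the 24971 whose total reached 10 counts. TMM normalisation and a model of 4 group means were used, and robust quasi-likelihood p-values were adjusted by Benjamini-Hochberg. A call needed both an adjusted p under 0.05 and a log2 fold change beyond 0.58 in either direction, which are the authors' thresholds. The authors used DESeq2. CPM carry the SD over 4 libraries. The fit was tested on simulated data.

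Members and lists were chosen with earlier results of these data known. The 34 members named are those called, the isoforms of 5 pairs, the 2 with the smallest p in each complex for each treatment and genotype comparison, and the 3 highest per kilobase. No libraries of a group were duplicates (chi-square over its degrees of freedom at least 7.62).

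The correlation of same-numbered treated and untreated libraries, after removal of group means, was 0.15, 0.59, 0.26 and 0.40 in Swhtr null and -0.11, -0.084, 0.17 and 0.32 in WT. The numbers were therefore taken to pair the Swhtr null libraries and not the WT ones, a reading from the data alone, and Swhtr null treated replicate 3 correlated most with untreated replicate 4 (0.33). WT treated replicates 1 and 2 correlated most with untreated replicates 2 (0.43) and 1 (0.22). WT treated replicates 3 and 4 correlated most with their own number, so the genotypes were not sharply apart in this. The block nested in genotype used the numbers in both genotypes.

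Alternatives were DESeq2 1.42.0, limma 3.58.1 with quality weights, DESeq2's size factors, other count filters, the libraries compared only, no fold threshold, the replicate block, a correction for gene length and each library left out. Leaving out both Swhtr null treated libraries with the most Myh6 was added after the data were seen.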

Additional observations from a re-analysis of the deposited data

Results flagged for a closer look

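Libraries that stood apart from the other 3 of their group, with a gap to the nearest of the others above Dixon's 95% critical value, were found in 5 of 168 groups tested, where chance gives about 1 in 20, or 8.4. Cox7a1 was at 6.09 CPM in Swhtr null untreated replicate 3 and at 3.32 to 3.49 CPM in the others. Atp5o was at 4.50 CPM in Swhtr null treated replicate 2 and at 6.11 to 6.37 CPM in the others. Atp5g3 was at 89.4 CPM in WT untreated replicate 1 and at 99.4 to 100.5 CPM in the others. Ndufb3 was at 31.8 CPM in Swhtr null untreated replicate 4 and at 29.9 to 30.2 CPM in the others. The level of complex I was -0.043 in WT treated replicate 4 and 0.053 to 0.069 in the others (median deviation of log2(CPM + 0.5)).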

How the results depend on the processing

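Over all complexes together, in 46 of 47 alternatives that used other settings and in all 80 that left out a library, the members' medians kept their sign and stayed within the spread between replicates. The exception was the difference of the responses with the length correction, -0.093 against -0.17. The 80 include cases where the library left out was in neither group compared. Such a case could hardly move a median and says little about stability. With a library left out, medians ran from -0.18 to -0.10 for treatment in Swhtr null slices, from 0.009 to 0.072 in WT slices, from 0.048 to 0.10 for Swhtr null against WT when untreated, from -0.12 to -0.071 when treated and from -0.21 to -0.14 for the difference. The count of members at an adjusted p under 0.05 for treatment in Swhtr null slices, 5 in edgeR, was the least stable: 20 with DESeq2, 3 with limma, 9 with DESeq2's size factors, 12 with edgeR's filter by expression (fewer genes tested), 2 with the libraries compared only, 3 with the length correction, 3 without both Myh6-rich libraries, and 2 to 15 with a library left out. The cause was not tested. With the replicate block it was 18, and with the block nested in genotype 25, of which 1 was called. The nested block gave 2 members for the difference of the responses and changed no other call among the comparisons. It pairs the WT libraries by number as well, which their correlations did not bear out in replicates 1 and 2. Without a fold threshold 5 members were called for treatment in Swhtr null slices. With the fold threshold 0 were called, and 0 to 1 with a library left out, the 1 being Cox6b2 without Swhtr null untreated replicate 2.

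Signs turned only near 0. For Swhtr null treated against WT treated, Cycs was at -0.009, at 0.028 in limma, 0.008 with the length correction, 0.086 without both Myh6-rich libraries and from -0.055 to 0.052 with a library left out. For Swhtr null untreated against WT untreated, Cycs was at -0.038, and from -0.089 to 0.014 with a library left out. Uqcrh in WT slices was at 0.013, at -0.006 in limma and from -0.048 to 0.056 with a library left out. No isoform ratio passed under any alternative. With a library left out none could have passed after adjustment, since the smallest possible p is too large for that. With all libraries a call needs most of the tests to separate fully, so these results say little about stability. The median SE of a member's log2 fold change for treatment in Swhtr null slices was 0.0765, and the largest among members above 10 CPM was 0.179. Cox8b held only 385 counts over all libraries, Cox6b2 636 and Cox6a2 710. Whether depth limited the results of these members was not tested.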

Other observations

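Genes of other mitochondrial pathways were also read. Of 11 genes of mitochondrial dynamics and mitophagy, 4 were lower and 1 higher for treatment in Swhtr null slices before adjustment (p under 0.05), and 2 were lower at an adjusted p under 0.05 in edgeR. Of all genes, 7.84% were lower and 8.69% higher before adjustment, and 1.27% lower after it. In WT slices 3 of the 11 were lower and 1 higher before adjustment, and none passed after it. The difference of the responses had a median of -0.021, with 1 of the 11 below 0 at an unadjusted p under 0.05. Bnip3 and Bnip3l (named after their values were seen) are hypoxia-inducible receptors that mark mitochondria for removal. Bnip3 averaged 95.8 ± 18.3 CPM in Swhtr null treated slices and 166 ± 34.5 CPM in Swhtr null untreated slices, against 102.2 ± 15.3 CPM in WT treated slices and 139 ± 22.1 CPM in WT untreated slices (SD, n = 4 each). Its log2 fold change was -0.79 in Swhtr null slices (adjusted p = 0.0326), which made it a called gene, and -0.45 in WT slices (adjusted p = 0.999). Bnip3l averaged 229 ± 24.1 CPM in Swhtr null treated slices and 334 ± 28.3 CPM in Swhtr null untreated slices (-0.54, adjusted p = 0.00467). The 16 genes of the tricarboxylic acid cycle, which feeds complexes I and II, had a median of 0.030 for treatment in Swhtr null slices. Of these, 2 were higher and 0 lower before adjustment (p under 0.05), against 8.69% and 7.84% of all genes. None had an adjusted p under 0.05 in edgeR.

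Among symbols that match the members' names, 12 were not protein-coding. Ndufb1-ps, which GENCODE classes as a bidirectional promoter lncRNA, held 20263 counts, and the processed pseudogene Ndufb4c 6161 counts, more than some members. No protein-coding gene with the symbol Ndufb1 matched, so that Ndufb1-ps had no parent gene among the members. Whether it serves as the gene of that subunit was not examined, and its biotype alone left it out. Reads of processed pseudogenes and of their parent genes can be split between them. The 12 were not analysed further here.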
